A study of Mus musculus with 25 samples.

Results

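The alpha-1-antitrypsin paralogues of the mouse are the 5 genes Serpina1a, Serpina1b, Serpina1c, Serpina1d and Serpina1e. They were matched by symbol to 5 of the 41388 Ensembl identifiers in the count files, and all 5 were among the 14065 genes kept for testing. The family was proposed with a low level of Serpina1e in livers labelled as SIRT1 knockout with the NAMPT vector already known, so the comparison of those livers with wild-type NAMPT livers is given here as a description and without a test.

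Liver RNA of 25 male mice of strain C57B/6J, aged 20 weeks, was sequenced after poly-A selection, and each library came from 1 mouse. The study asked which effects of hepatocyte NAMPT, which catalyses the rate-limiting step of NAD salvage, depend on SIRT1, a deacetylase that consumes NAD. All mice carried LoxP-flanked Sirt1 alleles, and LKO littermates also carried Albumin-cre, which acts in hepatocytes, whereas wild-type (WT) littermates did not. All mice received AAV8 at about 8 weeks of age, carrying either no insert (empty vector, EV) or NAMPT under the hepatocyte-directed thyroxine-binding globulin promoter. Chow was given to 3 WT EV mice. Western diet (WD) was given for 12 weeks to the other 4 groups, with 6 mice each in WT EV and WT NAMPT and 5 mice each in LKO EV and LKO NAMPT. One label field calls the insert SIRT1 while the titles call it NAMPT, and the titles were followed.

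Alpha-1-antitrypsin is a serpin that hepatocytes secrete in large amounts into plasma, where it inhibits serine proteases, above all neutrophil elastase. Humans carry a single such gene, whereas the mouse lineage duplicated it into a cluster whose members differ most densely in the reactive-centre loop, the exposed segment that a target protease attacks. Misfolded forms are kept in the endoplasmic reticulum, and the pathway from folding to secretion or degradation is well described for this protein. Levels are described below as TMM CPM, which are counts scaled to a common library total (CPM) with TMM size factors, and levels of different genes are compared after division by exon length in kilobases. Shares of the family's counts are not divided by length.

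The 5 genes lie on the minus strand of chromosome 12 (GRCm38). Serpina1b (ENSMUSG00000071178) runs from 103728156 to 103830373, a span that encloses Serpina1d (ENSMUSG00000071177), at 103763594 to 103773592. Serpina1a (ENSMUSG00000066366) follows at 103853589 to 103863562, Serpina1c (ENSMUSG00000079015) at 103894926 to 103904887 and Serpina1e (ENSMUSG00000072849) at 103946931 to 103958975. Their coding sequences (GENCODE M21 transcripts of the same build) are each 1239 bases long and align without gaps. Identity between pairs was 96.3% to 98.5%, with Serpina1a and Serpina1c the closest pair at 19 differing bases and Serpina1e differing from the other members at 43 to 46 bases.

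The 60 coding bases below run from base 1101 to base 1160 of each coding sequence. They are shown because they hold the densest variation and lie in the region that encodes the reactive-centre loop. Capitals mark the 18 positions at which the 5 members are not all alike, which is 30% of this stretch against 6.94% of the whole coding sequence (86 of 1239 positions).
Serpina1a: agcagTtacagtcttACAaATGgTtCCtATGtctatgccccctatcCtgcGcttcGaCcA
Serpina1b: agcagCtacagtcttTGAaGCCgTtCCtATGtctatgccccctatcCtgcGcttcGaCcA
Serpina1c: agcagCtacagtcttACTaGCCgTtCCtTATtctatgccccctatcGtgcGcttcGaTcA
Serpina1d: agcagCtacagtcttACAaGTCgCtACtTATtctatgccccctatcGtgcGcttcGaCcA
Serpina1e: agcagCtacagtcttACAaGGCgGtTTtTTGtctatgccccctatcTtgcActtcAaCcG
In this stretch Serpina1e carried 8 bases found in no other member, compared with 3 for Serpina1a and 2 each for Serpina1b, Serpina1c and Serpina1d. These differences bear on how reads of the members could be told apart, and they mark Serpina1e as the member with the most bases of its own in this stretch. No protein sequences were compared.

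The upstream sequences of Serpina1b and Serpina1e (RefSeq, GRCm38.p6, minus strand, the 250 bases before the annotated start) are shown because these members had the narrowest and the widest range of levels across libraries. The windows are chr12:103738190-103738439 for Serpina1b and chr12:103956898-103957147 for Serpina1e, and capitals mark the letters GTTAATATTCAC, a run of 12 bases found in every member.
Serpina1b: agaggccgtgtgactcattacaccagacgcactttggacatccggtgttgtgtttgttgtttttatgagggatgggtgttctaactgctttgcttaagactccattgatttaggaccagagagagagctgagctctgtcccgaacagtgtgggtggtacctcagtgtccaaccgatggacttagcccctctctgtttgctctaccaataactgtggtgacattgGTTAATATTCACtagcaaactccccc
Serpina1e: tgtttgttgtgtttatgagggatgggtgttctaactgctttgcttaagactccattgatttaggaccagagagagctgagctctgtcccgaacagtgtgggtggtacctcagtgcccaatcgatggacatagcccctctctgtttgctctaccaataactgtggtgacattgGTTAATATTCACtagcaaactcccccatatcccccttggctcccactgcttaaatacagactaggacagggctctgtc
All 5 members held GTTAATATTCAC on the forward strand, and so did, on either strand, 5 of 32851 promoter windows in all (0.0152%). The letters were read from the Serpina1a window itself, so their rarity elsewhere is partly given by that choice. It began 16 to 27 bases before the start in Serpina1a to Serpina1d and 78 bases before it in Serpina1e, whose RefSeq start lies further downstream. The shorter GTTAAT, which is contained in it, was present in 6.43% of all promoter windows. The letters TTCNNNGAA, the core recognised by STAT5, were in none of the 5 windows and in 7.02% of all windows. Over the 200 aligned bases the upstream sequences of Serpina1b and Serpina1e were 97% identical, and the rest of each 250-base window lay outside this local alignment.

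Because reads were single and 50 bases long and only uniquely aligned reads were counted, near-identical members may lose or share reads. Of all 50-base windows in the transcripts of a member, 65.4% of those of Serpina1e occurred in no other gene, compared with 70.5% for Serpina1b, 49.1% for Serpina1d, 42.4% for Serpina1a and 20.7% for Serpina1c. A stricter measure, windows at least 2 bases away from every other member, held for 35.5% of Serpina1e and 8.54% of Serpina1c. The level of Serpina1c therefore rests on the fewest distinguishing windows, and its values and those of Serpina1a, which share 69.4% of the windows of Serpina1c, are uncertain. The pseudogene Gm8893 in the same cluster shares windows with all 5 members (286 with Serpina1e and 573 with Serpina1a) and had 561 to 4347 counts per library. Serpina1c also overlaps 429 exon bases of B430119L08Rik on the opposite strand, and the strand setting of the counting is not given in the sources used here. B430119L08Rik had at most 277 counts in a library.

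Libraries held 20166175 to 32937326 counts, and within a group no pair of libraries agreed within sampling noise. Defining hepatocyte transcripts were present in every library, with Alb between 31000.0 and 51400.0 CPM. Sirt1 reached 8.57 ± 1.34 TMM CPM (SD, n = 5) in libraries labelled LKO EV and 8.86 ± 0.57 (SD, n = 6) in WD WT EV, and 9.82 ± 1.36 (SD, n = 5) in LKO NAMPT against 8.58 ± 0.62 (SD, n = 6) in WT NAMPT. Its whole-gene count, which does not resolve deleted exons, thus did not follow the label, and LKO refers below to the libraries labelled so. Nampt was 1.26-fold higher with the NAMPT vector in WT (adjusted p = 0.144) and 1.33-fold higher in LKO (adjusted p = 0.403, limma).

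In chow-fed WT EV livers Serpina1e was the member with the highest level per length, at 7395 ± 904 TMM CPM per kb (SD, n = 3). It ranked 16th of 14065 genes on this scale. Serpina1d followed at 2938 ± 108 and Serpina1b at 2647 ± 155 TMM CPM per kb, while Serpina1a at 1233 ± 42.3 and Serpina1c at 861 ± 131 were the lowest. The order of the other members depended on the length used. Per 1000 windows found in no other gene, Serpina1e still led at 11666 TMM CPM, but Serpina1c at 4307 stood above Serpina1b at 3966 and Serpina1a at 2887. All 5 members were thus among the 79 genes with the highest level per length in these livers. On Western diet the order changed in the WT EV group, where Serpina1b led at 2257 ± 372 TMM CPM per kb (SD, n = 6) and Serpina1e stood at 975 ± 1352. Per 1000 such windows Serpina1d led this group at 4188 TMM CPM, ahead of Serpina1b at 3382 and Serpina1c at 3280, and Serpina1e was the lowest at 1538. In LKO EV livers Serpina1e was the lowest member by a wide margin, at 73.8 ± 38 TMM CPM per kb (SD, n = 5), and ranked 692nd of all genes, while Serpina1b, Serpina1d, Serpina1a and Serpina1c still ranked 30th, 34th, 83rd and 102nd.

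**Figure D1:**
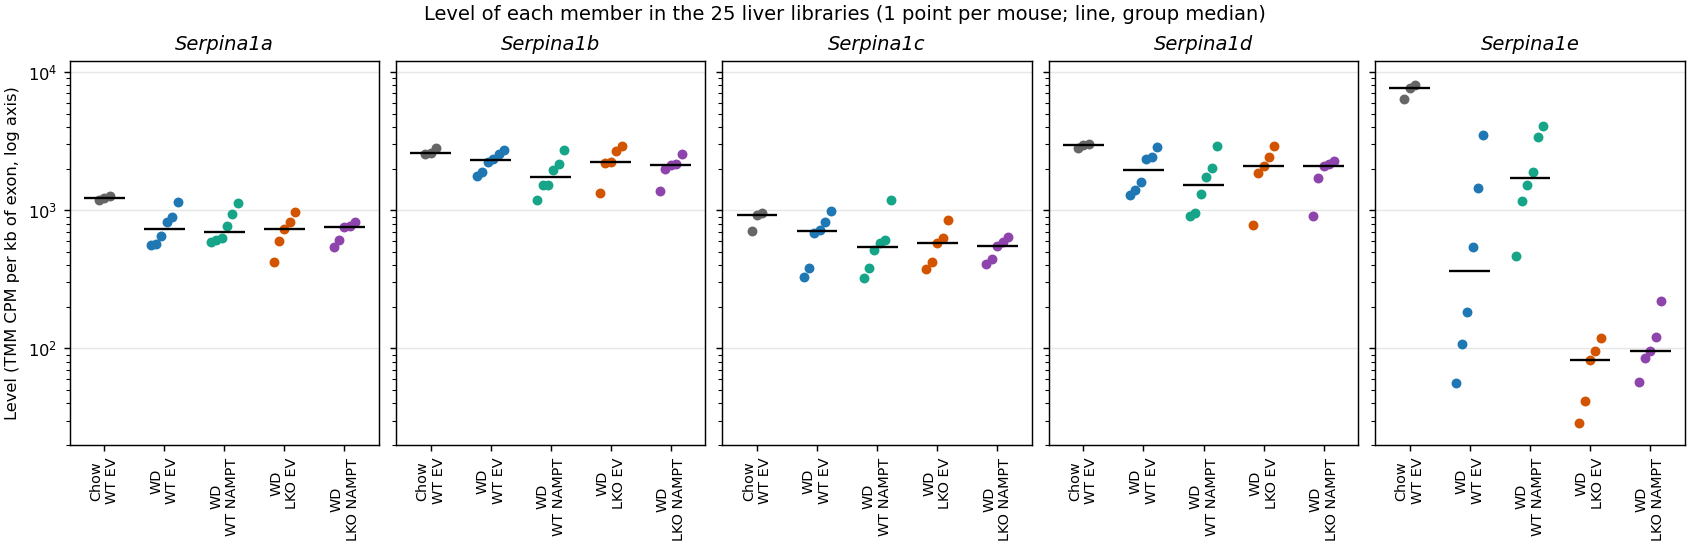
Each panel plots 1 member, with the level in TMM CPM per kb of exon on a log axis against the 5 groups, 1 point per mouse and a line at the group median. Serpina1e ranges over 282-fold across the 25 libraries, against 2.46-fold to 3.84-fold for the other members.

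Serpina1e was the member whose level varied most between livers. Its 3 chow libraries had 10314, 12444 and 13115 TMM CPM. The 6 WD WT EV libraries ran from 90.6 through a median of 584 to 5703 TMM CPM. The chow and WD WT EV libraries did not overlap, and within WD WT EV the highest mouse was 63.0-fold above the lowest. The 6 WD WT NAMPT libraries ran from 752 through a median of 2772 to 6543 TMM CPM. The 5 WD LKO EV libraries had 46.5, 67, 134, 156 and 193 TMM CPM. In WD LKO NAMPT the values were 92.2, 137, 154, 197 and 356 TMM CPM. Every LKO library thus lay below every WT NAMPT library, whereas 3 of 6 WD WT EV libraries (90.6, 174 and 296 TMM CPM) lay within the range of the LKO libraries. The counts behind these values were 1569 to 332455 per library, so counting error was small against the spread between mice. In bulk tissue, fewer cells that express a gene and less RNA per cell cannot be told apart.

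The spread of Serpina1e within WD WT EV was wide even among abundant genes. Its SD of log2 TMM CPM was 2.29, second of 1389 genes with a mean of at least 100 TMM CPM, whose median SD was 0.185. In chow WT EV its SD was 0.182, against a median of 0.134. The other members had SDs of 0.242 (Serpina1b) to 0.632 (Serpina1c) within WD WT EV.

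In order of mean level, Serpina1e ran from chow WT EV over WD WT NAMPT, WD WT EV and WD LKO NAMPT to WD LKO EV. Only the first step, from chow to WD WT NAMPT, was free of overlap between neighbouring groups. The share of all genes free of overlap was not computed for this step or for chow against all WD groups. Between chow WT EV and WD WT EV, 16.1% of all genes did not overlap (8.45% lower in WD WT EV). Serpina1a also ran from chow at 2182, 2255 and 2337 TMM CPM to WD groups whose highest library had 2103 TMM CPM, and the 4 WD groups overlapped each other. For Serpina1b, Serpina1c and Serpina1d all neighbouring groups overlapped. Serpina1b ranged from 2868 to 7049 TMM CPM, Serpina1d from 1096 to 4215 and Serpina1c from 443 to 1616 over the 25 libraries, with the highest mean of each in chow.

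The summed counts of the 5 members do not depend on how uniquely aligned reads were divided among them. They made up 2.56 ± 0.17% of all counts in chow WT EV (SD, n = 3), compared with 1.17 ± 0.44% in WD WT EV (n = 6), 1.31 ± 0.45% in WD WT NAMPT (n = 6), 1.01 ± 0.27% in WD LKO EV (n = 5) and 0.938 ± 0.165% in WD LKO NAMPT (n = 5). The lowest chow library (2.36%) was above the highest WD library (1.96%). The sum of Serpina1a to Serpina1d, without Serpina1e, was 13918 ± 376 TMM CPM in chow, and the means of the WD groups were 8972 to 10529. For this sum the ranges overlapped, since single WD WT EV, WT NAMPT and LKO EV libraries reached 14068, 14319 and 14060 TMM CPM. Most of the difference in the family sum between diets was carried by Serpina1e, which gave 46.1 ± 2.61% of the family's counts in chow. Its share was 9.81 ± 11% in WD WT EV, 25.6 ± 10.8% in WD WT NAMPT, 1.13 ± 0.44% in WD LKO EV and 2.1 ± 1.31% in WD LKO NAMPT. Serpina1b, which has the longest exon sequence of the family (2415 bases), had the largest mean share in each WD group, at 37.4% to 52.8% of undivided counts.

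**Figure D2:**
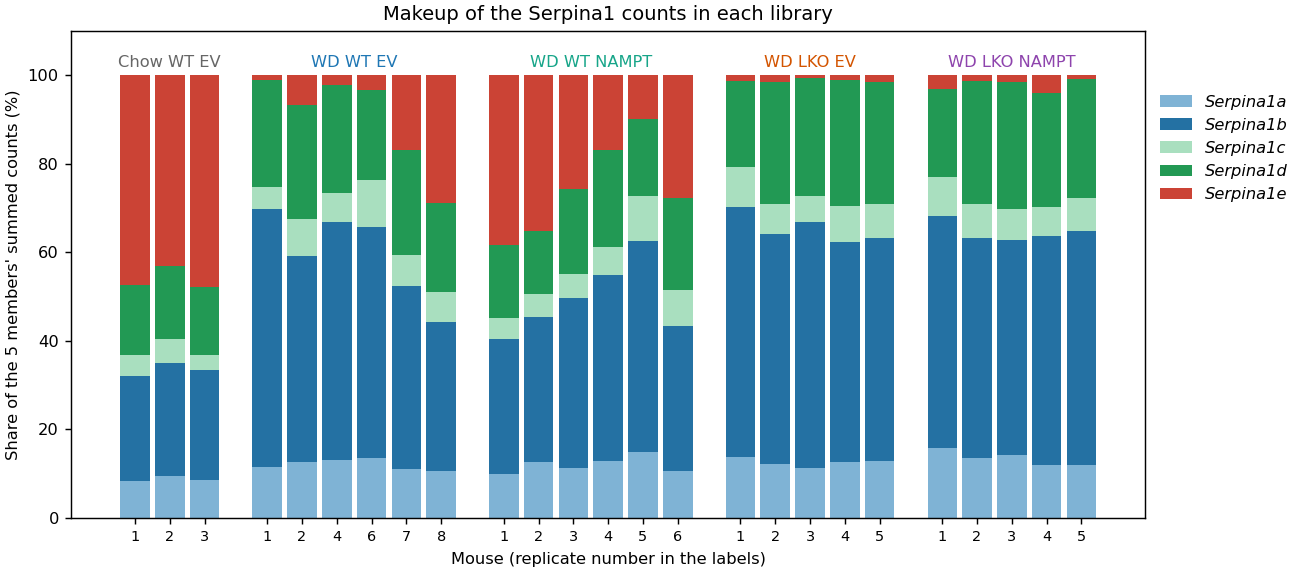
Each bar is 1 mouse and divides the summed counts of the 5 members into the share of each in percent, with mice grouped by diet, labelled genotype and vector. Serpina1e holds 43.1% to 47.8% in the chow mice, 0.989% to 28.8% in WD WT EV, 9.77% to 38.3% in WD WT NAMPT and at most 3.86% in any LKO mouse.

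**Figure D3:**
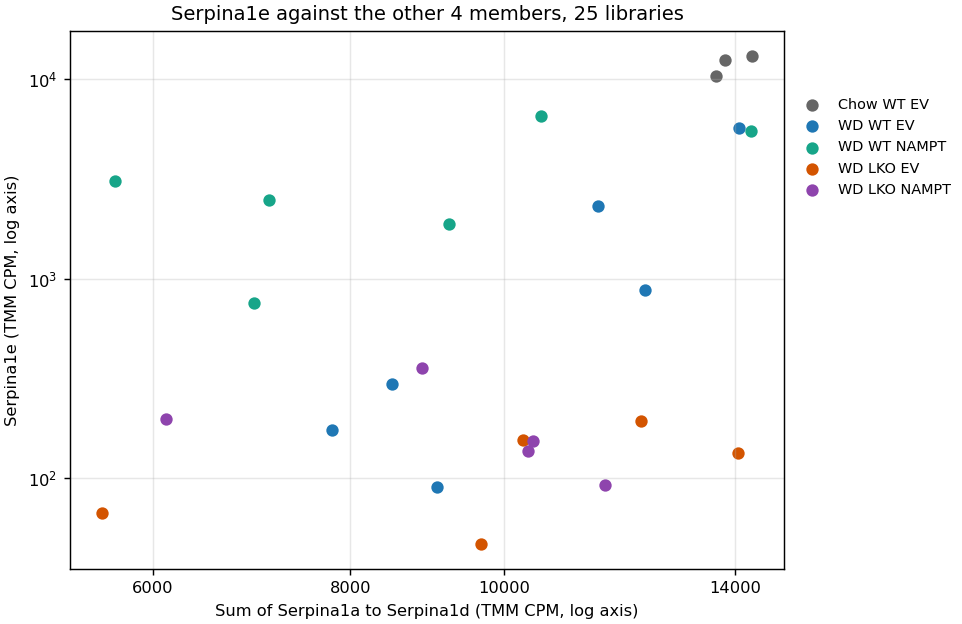
Serpina1e (y axis) is plotted against the sum of the other 4 members (x axis), both in TMM CPM on log axes, with 1 point per mouse in the color of its group. An LKO EV mouse with a sum of 9671 has 46.5 TMM CPM of Serpina1e, and a WT NAMPT mouse with a sum of 10548 has 6543.

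Serpina1e and Serpina1a were called lower by limma in WD WT EV than in chow WT EV livers, and the other members did not pass the test. Serpina1e was 19-fold lower in WD WT EV than in chow WT EV (log2 fold change −4.25 ± 0.88, SE; adjusted p = 0.00142, limma), the seventh lowest log2 fold change of 14065 genes. Serpina1a was 1.61-fold lower (−0.68 ± 0.20; adjusted p = 0.0157), and its chow and WD WT EV libraries did not overlap either. Serpina1b had a log2 fold change of −0.20 ± 0.18 (adjusted p = 0.456), Serpina1c of −0.54 ± 0.27 (0.15) and Serpina1d of −0.58 ± 0.29 (0.156). So 2 of 5 members were called lower, where 22% of all genes were called (10.1% higher and 12.0% lower) and 16.1% did not overlap (7.66% higher and 8.45% lower). The fold of Serpina1e depended on how the wide spread was averaged. The ratio of mean TMM CPM was 7.58, and edgeR and DESeq2 gave log2 fold changes of −2.92 and −2.91 and kept the call. Without chow replicate 2 neither gene was called (adjusted p = 0.0585 for Serpina1e and 0.172 for Serpina1a), and without chow replicate 1 Serpina1a was not (0.126). Leaving out WD WT EV replicate 8 or replicate 1 gave log2 fold changes of −4.87 and −3.65 for Serpina1e. Serpina1a was not called by edgeR (adjusted p = 0.0831 with the quasi-likelihood test) or DESeq2 (0.0531).

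In WT livers on Western diet, 0 of 5 members were called between NAMPT and EV, where 13.4% of all genes were (7.67% higher and 5.77% lower). Serpina1e had a log2 fold change of 1.85 ± 0.76 (adjusted p = 0.103, limma), and its WT NAMPT range of 752 to 6543 TMM CPM overlapped the WT EV range of 90.6 to 5703. The medians differed by 4.74-fold and the means by 2.14-fold. Serpina1b had a log2 fold change of −0.38 ± 0.17 (adjusted p = 0.136), and Serpina1a, Serpina1c and Serpina1d lay between −0.40 and −0.10. At an unadjusted p under 0.05 there were 2 members, Serpina1b and Serpina1e, and both edgeR tests and DESeq2 called 0. Without WD WT EV replicate 8, the mouse with the highest Serpina1e of its group, Serpina1e was called higher (log2 fold change 2.47, adjusted p = 0.0242). Without replicate 1, the mouse with the lowest, the log2 fold change was 1.26 (adjusted p = 0.215), and both edgeR tests and DESeq2 gave 1.09 to 1.1, with adjusted p up to 0.354. The WT NAMPT livers also had higher summed macrophage markers (median 723 CPM over 6 markers, range 230 to 994) than WT EV livers (343, range 232 to 359). The medians of neutrophil markers (11.1 against 2.81 CPM) and stellate cell markers (462 against 321 CPM) were higher too, and the part of these in the result was not tested. This comparison shares its NAMPT libraries with the one through which the family was proposed, and its EV libraries with the comparisons of diet and of LKO EV with WT EV.

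Between LKO EV and WT EV livers on Western diet, Serpina1e had a log2 fold change of −2.50 ± 0.63 and 0 of 5 members were called by limma. This was the ninth lowest log2 fold change of 14065 genes, with an unadjusted p of 0.000572 and an adjusted p of 0.322, in a comparison in which 0.00711% of all genes were called. DESeq2 (adjusted p = 0.00262) and the edgeR exact test (0.0083) called it, the edgeR quasi-likelihood test did not (0.249), and the range over all alternatives was 0.00262 to 0.903. The log2 fold change itself ran from −3.73 to −0.54 over the alternatives. The groups overlapped, whereas 0.59% of all genes did not overlap (0.327% lower), with LKO EV at 46.5 to 193 TMM CPM and WT EV at 90.6 to 5703. The other 4 members had log2 fold changes of −0.19 to −0.02 with SEs of 0.17 to 0.27. With WD WT EV replicate 8 left out the log2 fold change of Serpina1e was −1.88, and with replicate 1 left out it was −3.09 (adjusted p = 0.0517).

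In LKO livers the NAMPT vector was not accompanied by a called difference in any of the 5 members, in a comparison in which 0.00711% of all genes were called. Serpina1e had a log2 fold change of 0.59 ± 0.63 (adjusted p = 0.804, limma), and the LKO NAMPT and LKO EV libraries overlapped, whereas 1.15% of all genes did not. The LKO NAMPT libraries, and in the interaction also the WT NAMPT libraries, enter the comparison through which the family was proposed. The other members lay between −0.09 and 0.03. No member had an unadjusted p under 0.05, and both edgeR tests and DESeq2 called 0. The interaction, which is the NAMPT effect in LKO minus that in WT, had 0 of 5 members called against 0.00711% of all genes. Its value for Serpina1e was −1.26 ± 0.99 (adjusted p = 0.472), and those for the other members were 0.13 to 0.37 with SEs of 0.25 to 0.40. At an unadjusted p under 0.05 there were 0 members, and edgeR quasi-likelihood and DESeq2 called 0. A difference in the response of Serpina1e to NAMPT between genotypes was thus not shown at this spread between mice.

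The comparison of LKO NAMPT with WT NAMPT livers, through which the family was proposed, is described only. All 5 LKO NAMPT libraries (92.2 to 356 TMM CPM) were below all 6 WT NAMPT libraries (752 to 6543 TMM CPM) for Serpina1e, with a log2 fold change of −3.76 ± 0.76, and 1.39% of all genes did not overlap (0.604% lower and 0.789% higher). The other members had log2 fold changes of −0.01 ± 0.20 (Serpina1a), 0.27 ± 0.18 (Serpina1b), 0.11 ± 0.26 (Serpina1c) and 0.35 ± 0.29 (Serpina1d), and the groups overlapped for each. Serpina1e was thus the only member whose libraries did not overlap between these groups. The signs of Serpina1a and Serpina1c were not stable here when a library was left out. Summed markers also differed, with medians in LKO NAMPT and WT NAMPT of 337 and 723 CPM for macrophages, 3.35 and 11.1 CPM for neutrophils and 321 and 462 CPM for stellate cells, and their part in the difference was not tested.

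**Figure D4:**
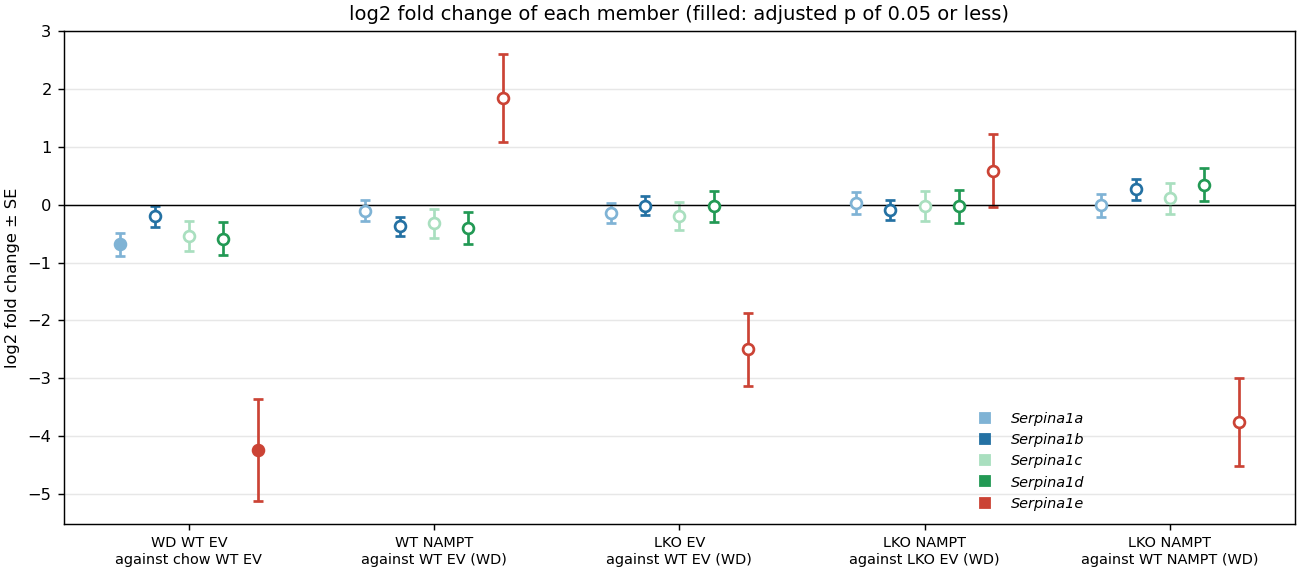
The y axis gives the log2 fold change with its SE (bars) for each member in 5 comparisons along the x axis, and filled points passed an adjusted p of 0.05. Serpina1e lies at −4.25, 1.85, −2.50, 0.59 and −3.76, while the other members stay between −0.68 and 0.35, and the rightmost comparison was not tested.

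The members did not vary together as 1 unit across livers. Over the 25 libraries, which share group differences and normalization, the Pearson correlation of log2 TMM CPM was 0.96 between Serpina1b and Serpina1d, 0.88 between Serpina1a and Serpina1d and 0.87 between Serpina1a and Serpina1c. The last pair also shares the most windows. Serpina1e correlated at 0.68 with Serpina1a, 0.50 with Serpina1c, 0.36 with Serpina1d and 0.20 with Serpina1b. With group means removed these values were 0.65, 0.57, 0.51 and 0.39, and that of Serpina1b with Serpina1d was 0.97. Serpina1e shares similar parts of its windows with each of the other members (24.1% to 26.8%), and the part of shared reads in the correlations was not tested.

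The genes most like a member were those outside the family with the highest Pearson correlation of log2 TMM CPM over the 25 libraries, among 12730 genes with a mean of at least 1 TMM CPM. For Serpina1e they were C8a (0.945), a chain of the complement membrane attack complex, and Gstp2 (0.941) and Gstp1 (0.936), the pi-class glutathione S-transferases, which are near-identical to each other and may share reads. C8a averaged 661 ± 42.8 TMM CPM in chow WT EV, 389 ± 140 in WD WT EV, 533 ± 67.7 in WD WT NAMPT, 312 ± 40.5 in WD LKO EV and 355 ± 41.5 in WD LKO NAMPT. Its order of groups was that of Serpina1e, over a far smaller range. Within WD WT EV its lowest and highest libraries, at 234 and 629 TMM CPM, were the same mice, replicates 1 and 8, as for Serpina1e. With group means removed the correlations were 0.895, 0.807 and 0.797. For Serpina1a the list was Serpind1 (0.925), which encodes the thrombin inhibitor heparin cofactor II, Abca8a (0.905) and Ncoa2 (0.903). For Serpina1c it included the carboxylesterase gene Ces3b (0.955) and Hsd3b2 (0.94). Serpina1b and Serpina1d were both led by Il1rap, an interleukin-1 receptor subunit (0.841 and 0.823), followed by Slc6a12 and Hsd11b1 for Serpina1b and Paics and Cxcl12 for Serpina1d.

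**Figure D5:**
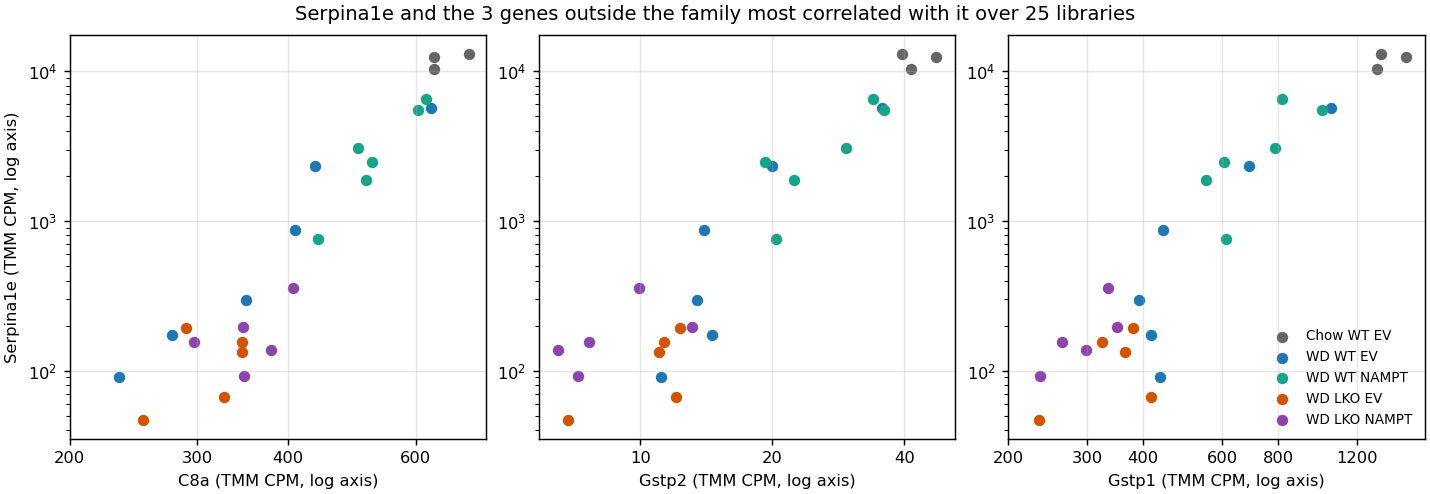
Serpina1e (y axis) is plotted against C8a, Gstp2 and Gstp1 (x axes), all in TMM CPM on log axes, with 1 point per mouse in the color of its group. In all 3 panels the chow mice are at the top right and the LKO mice toward the bottom left, and the WD WT EV mice spread widely, the lowest of them with less C8a (234 TMM CPM) than any LKO mouse.

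Among genes of related function, 13 of 14 other plasma protease inhibitors of liver were kept, and with Western diet in WT EV 7 were called lower and 0 higher, with a median log2 fold change of −0.31 against 0.00 over all genes, and percent called lower over all genes was 12.0. The largest falls were Itih3 at −0.84 ± 0.14 (adjusted p = 0.000212, limma) and Itih2 at −0.58 ± 0.14 (0.00459), heavy chains of inter-alpha-inhibitor, and Itih1 at −0.54 ± 0.11 (0.000919). Of 14 kept of 19 other clade A serpins, 3 were higher and 4 lower, where 10.1% of all genes were higher and 12.0% lower. Serpina9, a low transcript at 2.26 ± 1.29 TMM CPM in chow and 0.62 ± 0.646 in WD WT EV, was called lower (adjusted p = 0.00271, limma), and Serpina12, the adipokine vaspin, and Serpina7, the thyroxine-binding globulin gene, rose by 1.83 (0.0203) and 1.43 (0.0344) on the log2 scale. Serpina7 is the source of the promoter in the vector.

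Serpina1e levels are known to differ between mouse livers by sex, so sex-biased genes were listed too. Of 15 kept of 16 male-biased genes, 8 were lower and 0 higher in WD WT EV than in chow, where 12.0% of all genes were lower and 10.1% higher, with a median of −0.96 against 0.00 over all genes. Selenbp2 fell by 3.28 (adjusted p = 0.00146, limma), Cyp7b1, an oxysterol hydroxylase, by 1.90 (0.0103) and the elongase Elovl3 by 1.48 (0.028) on the log2 scale. Of 14 kept of 19 female-biased genes, 3 were higher and 2 lower, with a median of 0.24, and 2 of 14 is near the 12.0% of all genes called lower. Cyp3a41a was lower at −2.24 ± 0.24 (adjusted p = 5.63e-07, limma). Sult1e1, the estrogen sulfotransferase, and Hao2 were called higher (adjusted p = 0.0403 and 0.0234, limma) from near 0. Sult1e1 had 0.0789 ± 0.137 TMM CPM in chow and 0.705 ± 0.47 in WD WT EV, and Hao2 had 0.0526 ± 0.0911 and 0.473 ± 0.353, so no fold is given. Over the 25 libraries the median correlation with Serpina1e was 0.54 for the male-biased genes, −0.51 for 11 female-biased genes and 0.00 over all genes compared, and with group means removed it was 0.39, −0.25 and −0.02. The other plasma protease inhibitors correlated at least as highly, with a median of 0.57, or 0.42 with group means removed. Over the 25 libraries 13 of 13 inhibitors and 15 of 15 male-biased genes correlated positively with Serpina1e. The male-biased list holds Gstp1 and Gstp2. These are descriptions of libraries that share the same group differences. Of 8 growth hormone signalling genes, 3 were lower, against 12.0% of all genes, and 0 higher, with Igfals at −0.88 ± 0.25 (0.0123), Igf1 at −0.56 ± 0.16 (0.013) and Stat5b at −0.33 ± 0.08 (0.00638).

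Of 9 liver transcription factors that act on alpha-1-antitrypsin genes, 1 was higher and 1 lower with Western diet, a share near the 22% of all genes called. Cebpb rose by 1.02 on the log2 scale (adjusted p = 0.000983, limma). Of 12 genes for folding, secretion and degradation of secretory proteins, 1 was higher, the cargo receptor Surf4 at 0.27 ± 0.06 (0.00363), and 2 were lower, the chaperones Calr at −0.36 ± 0.11 (0.0228) and Canx at −0.21 ± 0.07 (0.0404), a share of the list near that over all genes too. The target proteases Elane, Prtn3 and Ctsg were not among the genes kept. Between WT NAMPT and WT EV, 2 of 12 folding and degradation genes were lower, Sel1l at −0.37 ± 0.09 (0.0125) and Edem1 at −0.29 ± 0.09 (0.0438), while 5.77% of all genes were called lower. There 2 of 15 male-biased genes were lower, Susd4 at −1.81 ± 0.55 (0.0321) and Elovl3 at −1.66 ± 0.42 (0.0155). Of the 14 other clade A serpins kept, Serpina10 was higher (0.30 ± 0.09, 0.03) and Serpina3m lower (−0.65 ± 0.16, 0.0153), a share near the 13.4% of all genes called. No other list had a called gene in this comparison, and no gene of any list was called between LKO NAMPT and LKO EV, between LKO EV and WT EV, or in the interaction. In each of these, only 0.00711% of all genes were called. Between LKO EV and WT EV the male-biased genes had a median log2 fold change of −0.58 (13 of 15 negative). The female-biased genes had 0.71 (11 of 14 positive), against 0.00 over all genes, and the lists were not tested as sets.

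Markers of other cells were set beside the levels. The 6 hepatocyte markers summed to 64900 to 75200 CPM in chow and 52900 to 66900 CPM in WD WT EV, a sum in which Alb is by far the largest part. The 6 hepatocyte markers correlated with Serpina1e in both directions over the 25 libraries. Cps1, the first enzyme of the urea cycle, ranged from 1320 to 6930 CPM and correlated with Serpina1e at 0.84. The values were 0.75 for Tat, which degrades tyrosine, 0.28 for Apoa1, 0.03 for Alb, −0.4 for Ttr and −0.59 for Fabp1, a fatty acid carrier. Neutrophil markers were low throughout, with group medians of 2.73 to 11.1 CPM over 6 markers, the highest in WT NAMPT, and Ly6g was at 0 in 18 of 25 libraries. Group medians of the stellate cell markers were 301 to 462 CPM, of the endothelial markers 225 to 239 CPM and of the cholangiocyte markers 4.94 to 14.2 CPM. Markers of exocrine pancreas and of adipocytes had group medians under 0.31 CPM, with single libraries at 9.7 and 2.47 CPM. The part of these cells in the levels of the members was not tested.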

How the data were processed

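Liver RNA was poly-A selected and sequenced as single 50-base reads. Per the methods and the submitters' processing notes, the authors aligned reads to GRCm38 (Ensembl annotation) with STAR (2.5.1a in the notes) and obtained gene counts from unambiguous, uniquely mapped reads with featureCounts (1.4.6-p5 in the notes). The study's methods name other versions of both tools, and which were used is not settled here. The strand setting is not given in the sources used here. The deposited files hold raw counts for 41388 genes beside CPM and RPKM columns made by the authors. Recomputed CPM and RPKM deviated by at most 5.9e-14, and only counts were used. Groups came from sample titles.

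Genes over 1 CPM in at least 2 libraries were kept and 4 ribosomal RNA genes left out (14065 genes). TMM factors (edgeR 4.0.16) and voomWithQualityWeights (limma 3.58.1, R 4.3.3) were fitted over all 25 libraries with 1 mean per group, as in the study's methods. P-values from limma's moderated test were adjusted over the 14065 genes (Benjamini-Hochberg), and an adjusted p of 0.05 or less was called. Each library is 1 mouse, so p-values set a group difference against the spread between mice, estimated over all groups together. For Serpina1e that spread was uneven, with an SD of log2 TMM CPM of 0.182 in chow WT EV and 2.29 in WD WT EV. The fits were tested on simulated counts. Alternatives were edgeR quasi-likelihood and exact tests, DESeq2 1.42.0, no quality weights, other size factors, no filter, only the groups compared, a replicate block and fits without 1 library. Log2 levels used a pseudocount of 0.5.

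Coding sequences and 50-base windows came from GENCODE M21 transcripts, whose exons matched the file's exon bases for all 5 members (Biopython 1.88), and upstream sequences from RefSeq. Members and gene lists were chosen with earlier results of these data known. Genes outside the family were named as the 3 most correlated with each member, Sirt1 and Nampt as label checks, and up to 3 called genes per list with the largest change. Neighbouring genes that share sequence, defining markers and the mice at the ends of a range were named in addition, after their values were seen. Some genes that this rule names are not reported here.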

Additional observations from a re-analysis of the deposited data

Results flagged for a closer look

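In WD WT NAMPT, replicate 6 had 1616 TMM CPM of Serpina1c, the highest of its group, and its gap to the next mouse (830 TMM CPM) was 0.67 of the whole range of the group, above the critical value of 0.625 for 6 samples. The other 5 mice ran from 443 to 830 TMM CPM. The same mouse had the highest Serpina1a (2075 TMM CPM), Serpina1b (6539) and Serpina1d (4089) of its group. Of 20 sets of values examined in this way (5 members in 4 groups) this was the only 1 past its critical value, and chance gives about 1 in 20. The highest Serpina1e library in WD WT EV had a gap of 0.602 of its range, under the critical value of 0.625. Serpina1c has the fewest windows of its own (20.7%), and the part of reads from other members in this value was not tested.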

How the results depend on the processing

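Serpina1e was lower in WD WT EV than in chow under every setting tried, and called in all but the fit without chow replicate 2. The number of members called there was 2, and was 1 with either edgeR test, with DESeq2 and without sample quality weights, Serpina1a being lost each time, and 0 to 2 with a library left out. For NAMPT against EV in WT it was 0, and 1 with the replicate block and 0 to 1 with a library left out. For LKO EV against WT EV it was 0, and 1 with the edgeR exact test and with DESeq2. It stayed 0 for NAMPT in LKO and for the interaction in all fits, although the interaction of Serpina1e ranged from −3.12 to −0.44. In LKO NAMPT against WT NAMPT the log2 fold change of Serpina1e was −4.12 to −3.44 with a library left out and −4.17 to −3.66 otherwise.

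The replicate numbers of the labels only number mice. Deviations of same-numbered mice correlated at −0.377 to 0.419, so they are not shown to pair samples. With the replicate block, Serpina1e was called in NAMPT against EV in WT (log2 fold change 3.67, adjusted p = 0.00278), stood at −0.54 (adjusted p = 0.873) in LKO EV against WT EV, and 3 members were called (Serpina1a, Serpina1c and Serpina1e) in WD WT EV against chow.

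Log2 fold changes not called in the comparison concerned changed sign as follows. For NAMPT in WT, Serpina1a was 0.00084 with edgeR quasi-likelihood, 0.00085 with the exact test, 0.02 without quality weights, 0.04 with library size alone, 0.25 with the block and −0.20 to 0.02 with a library left out, and Serpina1c was 0.31 with the block. For NAMPT in LKO, Serpina1a was −0.02 with both edgeR tests, −0.03 with DESeq2 and with the block, and −0.15 to 0.16 with a library left out; Serpina1b was −0.27 to 0.01, Serpina1c −0.18 to 0.13 and Serpina1d −0.32 to 0.14 with a library left out. For LKO EV against WT EV, Serpina1b was 0.01 and Serpina1d 0.02 with edgeR and DESeq2, both 0.01 with library size alone, and with the block Serpina1a, Serpina1b, Serpina1c and Serpina1d were 0.17, 0.14, 0.37 and 0.30. With a library left out they were −0.27 to 0.02, −0.12 to 0.15, −0.39 to 0.01 and −0.19 to 0.25. For the interaction, Serpina1a was −0.02 (edgeR quasi-likelihood), −0.03 (DESeq2), −0.01 (no quality weights and library size alone), −0.28 (block) and −0.05 to 0.26 (a library left out), Serpina1c was −0.0038 with DESeq2 and −0.42 with the block, and Serpina1d was −0.04 with the block. For LKO NAMPT against WT NAMPT, which was not tested, Serpina1c was −0.20 to 0.09 over the other settings and −0.08 to 0.23 with a library left out, and Serpina1a −0.14 to 0.06 with a library left out. The cause was not tested.

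Library size alone shifted all genes by 0.16 (log2) in WT NAMPT against WT EV relative to TMM. Uniqueness over the genome was not run, since transcripts and not a genome were used. With windows found in no other transcript as length, an alternative chosen after seeing the data, Serpina1e in chow was 2.69 times the mean of the other members, against 3.85 per kb of exon. Counts of at least 1569 keep the counting error of Serpina1e small and say nothing of shared reads.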
